A study of Mus musculus with 12 samples.

Results

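The passage of a mammalian cell from G1 into S phase is governed by a small set of proteins, and 9 genes that encode its core were followed here in mouse embryonic fibroblasts (MEFs) that received cardiac transcription factors. They were the D-type cyclin genes Ccnd1, Ccnd2 and Ccnd3, the E-type cyclin genes Ccne1 and Ccne2, the pocket protein genes Rb1, Rbl1 and Rbl2, and E2f1. Every probe set that the platform annotation assigned to one of these symbols was taken, whatever its signal. This gave 20 probe sets for the 9 genes, none of them shared with another symbol, among 12393 genes measured on the arrays.

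RNA of whole cultures was hybridized to 12 Affymetrix Mouse Genome 430A 2.0 arrays, with 3 biological replicates in each of 4 groups. The MEFs, of strain C57BL/6 per the labels, all carried M2rtTA, a transactivator that binds the tet promoter when doxycycline is present, from a lentivirus. The negative control carried M2rtTA alone. TF group 1 also received GATA4, TBX5 and MEF2C (3 factors), TF group 2 received those and Mesp1 and SMARCD3 (5 factors), and TF group 3 received all of these and MYOCD and SRF (7 factors). All 4 groups were kept for 7 days with doxycycline, valproic acid (a histone deacetylase inhibitor) and additional serum, so the cells of the negative control had the same drugs. The factors were human cDNAs except Mesp1, which was mouse, and cells were neither sorted for the factors nor cloned.

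D-type cyclins bind CDK4 and CDK6 and link mitogen signals to the cell cycle, and E-type cyclins bind CDK2 at the entry into S phase. These kinases phosphorylate the pocket proteins pRb, p107 (Rbl1) and p130 (Rbl2), which otherwise hold E2F transcription factors and keep their target genes low. E2F1 is an activating member of that family, and Ccne1, Ccne2, Rbl1 and E2f1 are themselves known E2F target genes. In resting fibroblasts p130 is the abundant partner of E2F, whereas p107 is found mainly in cycling cells.

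The deposited values are 1 linear signal per probe set and array, and were compared after log2 transformation. Differences are log2 differences, with the standard error (SE) of the limma fit over all 12 arrays, and a gene was called higher or lower at an adjusted p under 0.05 together with a fold change over 1.5. Each gene was counted at its brightest probe set, that with the highest mean over the arrays. The 3 comparisons with the negative control share the same 3 control arrays, and 3 arrays per group limit the precision. Whether the arrays of a gene overlap between groups is described without the share of all genes for comparison. Separation alone therefore does not set a gene apart. With cultures measured in bulk, fewer cells that express a gene and less of its RNA per cell cannot be told apart.

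The arrays had a common trimmed mean signal of 500, and correlated at r of 0.960 to 0.966 within groups and 0.922 to 0.933 between the negative control and the TF groups (log2 signals, all probe sets). Mesp1, the only factor whose delivered cDNA was mouse, had signals of 1996 to 2146 in TF group 2 and 1253 to 1726 in TF group 3, against 88.2 to 180 in the negative control and 112 to 121 in TF group 1. All 8 fibroblast markers were above a signal of 32, the level below which a probe set is called dim here, in every group, with a summed signal of 58906 to 61973 in the negative control and 55961 to 73781 in the TF groups. The summed signal of 4 proliferation markers (Mki67, Top2a, Birc5 and Bub1) was 7042 to 7290 in the negative control and 506 to 821 in the TF groups. That of 5 cardiac markers was 242 to 310 in the negative control, 1944 to 2074 in TF group 1, 2354 to 2435 in TF group 2 and 8251 to 9458 in TF group 3. In TF groups 1 and 2 most of it was Tnnt2, with mean log2 signals of 10.76 and 10.99 against 6.57 in the control. Actc1 and Nppa rose there as well. Myh6 was dim there (1.34 and 1.04, against 1.84), and Ryr2 was at 5.23 and 5.07 against 5.25. Of other cell types, 4 epithelial markers summed to 217 to 249 in the negative control and 486 to 779 in the TF groups, and 4 neuronal markers to 232 to 257 and 578 to 1289.8. The sums of 4 macrophage markers were 336 to 372 in the negative control and 280 to 453 in the TF groups. Those of 4 endothelial markers were 69.7 to 143 and 74.0 to 143. In the negative control and TF groups 1, 2 and 3, the mean log2 signal of Krt18 was 6.94, 9.10, 9.28 and 8.54. Krt8 was at 5.60, 5.65, 5.47 and 4.78, and Epcam and Cdh1 rose by less than Krt18. Of the neuronal markers, Tubb3 was at 6.70, 8.93, 8.33 and 9.19, and Nefl at 4.09, 4.16, 9.62 and 7.05. Map2 was at 6.55, 6.03, 6.62 and 6.51, and Syp at 4.82, 5.45, 5.44 and 5.10. The fibroblast sum does not show Pdgfra, whose mean log2 signal was 10.72 in the negative control and 10.81, 9.83 and 9.43 in TF groups 1, 2 and 3. The part of these markers in the values below was not tested.

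The mean log2 signal of 24 poly-A spike probe sets, for bacterial transcripts that are usually added to RNA before amplification, was 0.81 higher on the arrays of the TF groups than on those of the negative control (8.03 to 8.28 against 6.99 to 7.79). Scaling the arrays to these spikes moved the median log2 difference of all probe sets from 0.06, 0.05 and 0.05 in TF groups 1, 2 and 3 to -0.84, -0.69 and -0.74. Under that scaling 2.74%, 4.14% and 3.53% of genes were called higher and 55.3%, 44.4% and 48.4% lower. The deposited scaling was kept as the main one, and the spike-scaled value is given for each gene below, since the direction of a small difference depends on it.

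Against the negative control, 2 of the 9 genes were called higher and 3 lower in TF group 1. The numbers were 2 and 4 in TF group 2 and again 2 and 4 in TF group 3. Of all 12393 genes, TF group 1 had 15.1% called higher and 8.93% lower, TF group 2 had 15.3% and 10.1%, and TF group 3 had 14.7% and 9.84%. Rb1 and Rbl2 were the genes called higher, and Ccne1, Ccne2 and Rbl1 were called lower in all 3 TF groups, with E2f1 among the lower genes in TF groups 2 and 3. At their brightest probe sets, the D-type cyclin genes had signals above the control arrays in every TF group on the deposited scale. After spike scaling they were below them on average. On the deposited scale these probe sets stayed under the fold threshold. With the mean of the probe sets of a gene in place of the brightest, Ccnd2 was called higher in TF groups 1 and 2 (log2 differences 0.61 and 0.61). Scaled to the spikes, the counts were 0 higher and 4 lower in TF group 1, 1 and 4 in TF group 2, and 1 and 5 for TF group 3. Under that scaling 55.3%, 44.4% and 48.4% of all genes were lower, so the numbers lower were near that share. The share of all genes called higher was 2.74%, 4.14% and 3.53%.

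**Figure D1:**
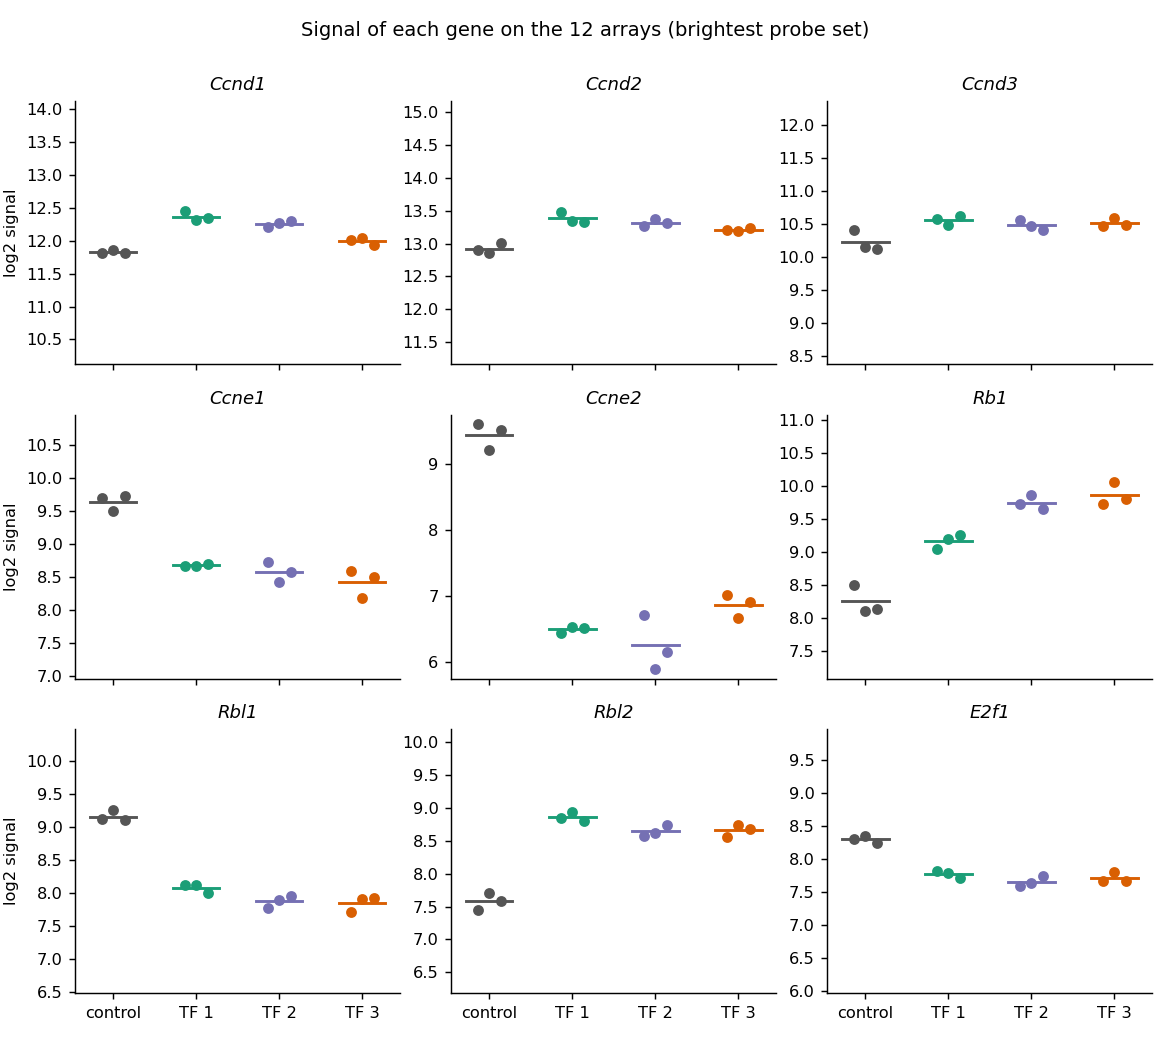
Log2 signal of the 9 genes, each at its brightest probe set, on the 12 arrays. Points are arrays, bars are group means (n = 3), and every panel spans 4 log2 units. The TF arrays lie above the control arrays for Ccnd1, Ccnd2, Ccnd3, Rb1 and Rbl2 and below them for Ccne1, Ccne2, Rbl1 and E2f1. The share of all genes whose TF and control arrays lie apart is not given, so separation alone does not set these genes apart.

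The E-type cyclin genes fell, Ccne2 most of all 9 genes. Ccne2 (chr4:11190433-11204779, GRCm38.p6) had signals of 776, 595 and 729 on the control arrays, 86.8, 92.0 and 91.2 in TF group 1, 105, 59.3 and 71.0 in TF group 2, with 129, 101 and 120 in TF group 3. Every control array lay far above every TF array, and on the log2 scale the 3 arrays of TF group 2 spread most widely (SD 0.42, against 0.20 in the control). The fall was 7.73-fold in TF group 1 (log2 difference -2.95, SE 0.19, adjusted p = 2.7e-06), 9.14-fold in TF group 2 (-3.19, adjusted p = 1.3e-06) and 6.00-fold in TF group 3 (-2.58, adjusted p = 5.6e-06). Spike scaling deepened the log2 differences to -3.85, -3.93 and -3.38.

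Ccne1 (chr7:38097984-38107490, GRCm38.p6) fell by less. Its signals were 830, 724 and 849 in the negative control, 405, 407 and 415 in TF group 1, 423, 343 and 381 in TF group 2, with 384, 291 and 362 in TF group 3. The control and TF arrays did not overlap, whereas the TF groups lay close to each other. The folds were 1.95, 2.10 and 2.33 lower in TF groups 1, 2 and 3 (log2 differences -0.97, -1.07 and -1.22, SE 0.12, adjusted p from 2.9e-05 to 0.00014), and the spike-scaled log2 differences were -1.86, -1.81 and -2.01. Within arrays, where a factor common to the whole array cancels, the log2 change of Ccne1 was above that of Ccne2 by 1.98 (SD 0.04 over the 3 arrays) in TF group 1, 2.12 (SD 0.27) in TF group 2 and 1.37 (SD 0.03) in TF group 3, against an SD of 0.09 among the control arrays.

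The D-type cyclin genes went the other way on the deposited scale, by small amounts. Ccnd1 (chr7:144929931-144939831, GRCm38.p6), the mitogen-induced cyclin D of fibroblasts, had signals of 3602, 3728 and 3583 in the negative control, 5562, 5090 and 5169 in TF group 1, 4726, 4931 and 5012 in TF group 2, with 4133, 4201 and 3928 in TF group 3. The 4 groups did not overlap, and TF group 3 lay nearest to the control arrays. The log2 differences from the control were 0.53 in TF group 1 (adjusted p = 6.1e-05), 0.43 in TF group 2 (adjusted p = 0.00024) and 0.17 in TF group 3 (adjusted p = 0.043), each with an SE of 0.06, and the folds of 1.45, 1.34 and 1.12 were under the threshold. TF group 3 was lower than TF group 1 by a log2 difference of -0.37 (95% confidence interval -0.50 to -0.24, adjusted p = 0.0028) and than TF group 2 by -0.26 (adjusted p = 0.024), again under the fold threshold. The remaining pair of Ccnd1 probe sets gave 0.51, 0.32 and 0.11 at the one and 0.52, 0.38 and 0.22 at the other in TF groups 1, 2 and 3. In TF group 3 the former overlapped with the control arrays (adjusted p = 0.28 in limma), and the latter had an adjusted p of 0.082. The sign of these differences flipped with the scaling, since the spike-scaled values at the brightest probe set were -0.36, -0.31 and -0.63, of which that of TF group 3 was called lower (adjusted p = 0.025).

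Ccnd2 (chr6:127125162-127152188, GRCm38.p6) was measured by 7 probe sets that differed in the size of the change. At the brightest, the signals were 7623, 7420 and 8236 in the negative control, 11427, 10346 and 10241 in TF group 1, 9815, 10593 and 10127 in TF group 2, with 9396, 9365 and 9638 in TF group 3. All TF arrays were above all control arrays, with log2 differences of 0.46, 0.39 and 0.29 (SE 0.07, adjusted p = 0.00038, 0.00098 and 0.0062) and folds of 1.37, 1.31 and 1.22, and none was called. At the probe set 1416123_at the signals were 1016, 877 and 929 in the negative control, 1982, 1846 and 1813 in TF group 1, 1969, 1936 and 1867 in TF group 2, with 1557, 1541 and 1457 in TF group 3. There the folds were 2.00, 2.05 and 1.62 and all 3 were called (adjusted p from 2.4e-06 to 3.5e-05). A further probe set, 1416124_at, was called in all 3 groups as well (log2 differences 0.78, 0.78 and 0.62, SE 0.10), and 1448229_s_at in TF groups 1 and 2 (0.69 and 0.74, SE 0.06) with 0.55 in TF group 3. These 3 had the lowest mean signals of the 7 probe sets, and the other 4 gave values between 0.25 and 0.54. After spike scaling no Ccnd2 probe set was called, and the brightest stood at -0.44, -0.35 and -0.50.

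Ccnd3 (chr17:47505051-47599689, GRCm38.p6) had signals of 1355, 1140 and 1111 in the negative control, 1525, 1435 and 1580 in TF group 1, 1504, 1414 and 1360 in TF group 2, with 1412, 1548 and 1430 in TF group 3. The lowest TF array stood just above the highest control array. The log2 differences of 0.34, 0.25 and 0.29 (SE 0.09, adjusted p = 0.012, 0.044 and 0.025) were under the fold threshold, and were -0.56, -0.49 and -0.50 after spike scaling. The D-type cyclin genes were also set against each other within arrays. Compared with Ccnd1, the change of Ccnd2 differed by -0.08, -0.03 and 0.12 log2 units in TF groups 1, 2 and 3 and that of Ccnd3 by -0.20, -0.18 and 0.12, with an SD of 0.10 and 0.17 among the control arrays. Of these 6 values, arrays of the TF group and the control overlapped in all but that of Ccnd3 in TF group 1.

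Within arrays, where a factor common to the array cancels, Ccnd1 was set against Ccne1 and Ccnd2 against Ccne2. Ccnd3 was not paired with an E-type cyclin gene. Ccnd1 gained 1.501, 1.496 and 1.39 log2 units on Ccne1 in TF groups 1, 2 and 3 (SD 0.08, 0.19 and 0.24, and 0.16 in the control). Ccnd2 gained 3.41, 3.58 and 2.87 on Ccne2 (SD 0.13, 0.47 and 0.17, and 0.17 in the control). In neither pair did any TF array overlap with a control array. Each pair joined a gene above the control on the deposited scale with a gene below it. A gain therefore followed from the values above and is no separate result, and the share of other gene pairs that lie apart was not computed.

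**Figure D2:**
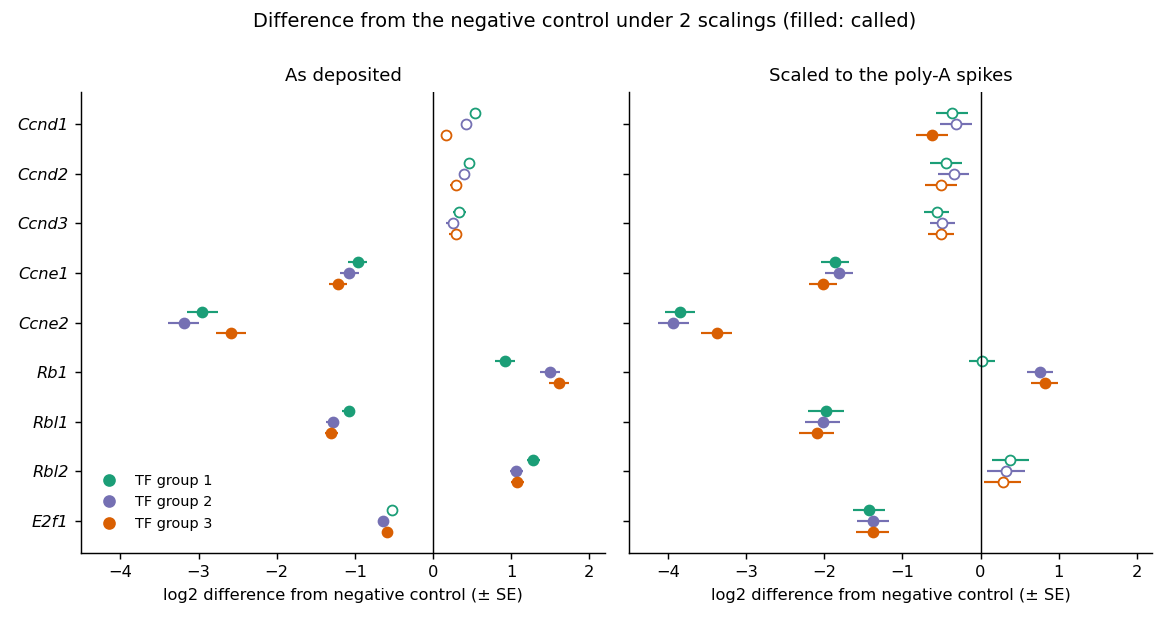
Log2 difference of each TF group from the negative control for the 9 genes at their brightest probe sets, with the deposited scaling (left) and with the arrays scaled to the poly-A spikes (right). Bars are ± 1 SE of the limma fit, and filled points were called. Ccne1, Ccne2 and Rbl1 were called lower under both scalings, Rb1 was called higher under both in TF groups 2 and 3, and the signs of the D-type cyclin genes changed.

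**Figure D3:**
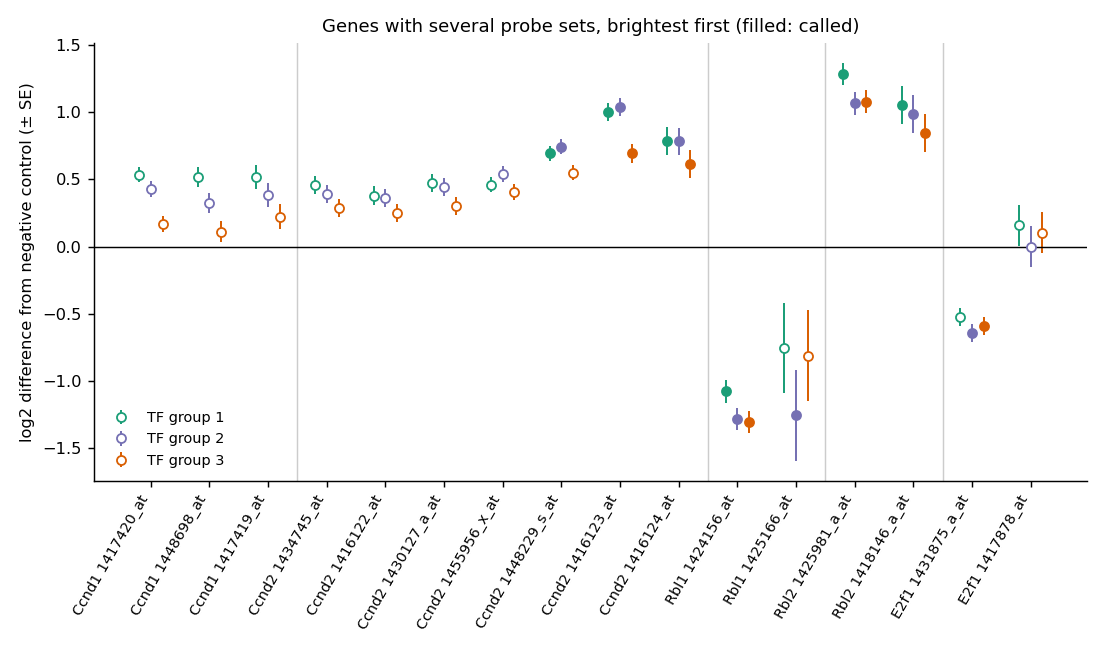
Log2 difference from the negative control (± 1 SE) at every probe set of the 5 genes that have several, ordered within each gene from the brightest to the dimmest. Filled points were called. The Ccnd2 probe sets ranged from 0.25 to 1.04, and the pair of E2f1 probe sets disagreed.

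Among the pocket protein genes Rb1 and Rbl2 rose and Rbl1 fell. Rb1 (chr14:73192858-73325951, GRCm38.p6), the retinoblastoma gene, had 1 probe set, with signals of 363, 275 and 282 in the negative control, 526, 588 and 612 in TF group 1, 849, 935 and 804 in TF group 2, with 846, 1066 and 898 in TF group 3. Control, TF group 1 and the TF groups 2 and 3 formed 3 steps without overlap, while TF groups 2 and 3 overlapped with each other. Rb1 was 1.89-fold higher in TF group 1 (log2 difference 0.92, SE 0.13, adjusted p = 0.00036), 2.83-fold in TF group 2 (1.501, adjusted p = 1.3e-05) and 3.06-fold in TF group 3 (1.61, adjusted p = 8.6e-06). After spike scaling it was at 0.02 in TF group 1, which was not called, and at 0.76 and 0.82 in TF groups 2 and 3, which were.

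Rb1 was also the only one of the 9 genes called between TF groups. TF group 3 exceeded TF group 1 by 1.62-fold (log2 difference 0.70, 95% confidence interval 0.40 to 0.99, adjusted p = 0.0069), and 0.80 with spike scaling (adjusted p = 0.038). Between TF groups 2 and 1 the difference of 0.58 (0.29 to 0.88, adjusted p = 0.028) fell just short of the fold threshold, with a fold of 1.499, and between TF groups 3 and 2 it was 0.11 (-0.18 to 0.41, adjusted p = 0.70). Over all genes 6.31% were called in either direction between TF groups 3 and 1, 3.87% between TF groups 2 and 1 and 4.03% between TF groups 3 and 2, against 1, 0 and 0 of the 9 genes.

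Rbl1 (chr2:157145893-157204534, GRCm38.p6), which encodes p107, had signals of 553, 608 and 547 in the negative control, 277, 279 and 254 in TF group 1, 218, 238 and 246 in TF group 2, with 210, 240 and 242 in TF group 3 at its brighter probe set. No control array overlapped with a TF array, and TF groups 2 and 3 overlapped with each other. The folds were 2.11, 2.43 and 2.47 lower (log2 differences -1.08, -1.28 and -1.30, SE 0.08, adjusted p from 1.8e-06 to 6.9e-06), and the spike-scaled values were -1.98, -2.02 and -2.10. At the dimmer probe set the signals were 74.4, 69.3 and 71.6 in the negative control, 41.9, 45.2 and 40.7 in TF group 1, 48.1, 15.2 and 37.0 in TF group 2, with 39.1, 40.2 and 43.5 in TF group 3. Replicate 2 of TF group 2 was much lower than any other array there and widened the SE to 0.34, so that only TF group 2 was called (log2 differences -0.75, -1.25 and -0.81). Without that array all 3 TF groups were called at this probe set.

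Rbl2 (chr8:91070057-91123844, GRCm38.p6), which encodes p130, had signals of 174, 208 and 193 in the negative control, 459, 489 and 446 in TF group 1, 378, 394 and 428 in TF group 2, with 376, 424 and 410 in TF group 3 at its brighter probe set. Every TF array was well above every control array, and TF group 1 was above the other TF groups. The folds of Rbl2 over the control were 2.43, 2.09 and 2.11 (log2 differences 1.28, 1.06 and 1.08, SE 0.08, adjusted p from 2.8e-06 to 7.6e-06), and its dimmer probe set gave 1.05, 0.98 and 0.84 (SE 0.14), called in each group. Scaled to the spikes, the brighter probe set was at 0.38, 0.33 and 0.28 (SE 0.24), not called.

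Since Rbl1 and Rbl2 moved in opposite directions on the same arrays, their difference is not altered by a factor common to the array. Rbl2 gained 2.36 log2 units on Rbl1 in TF group 1, 2.35 in TF group 2 and 2.38 in TF group 3, with SDs of 0.05, 0.04 and 0.04 in the TF groups and 0.08 in the control, which are folds of 5.13, 5.09 and 5.21. Rb1 gained 1.99, 2.78 and 2.92 log2 units on Rbl1 (SD 0.17, 0.15 and 0.13, and 0.27 in the control). Set against Rbl2, the change of Rb1 was -0.37 in TF group 1, 0.44 in TF group 2 and 0.54 in TF group 3 (SD 0.13, 0.18 and 0.10, and 0.34 in the control), and only in TF group 3 were the arrays apart from those of the control.

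**Figure D4:**
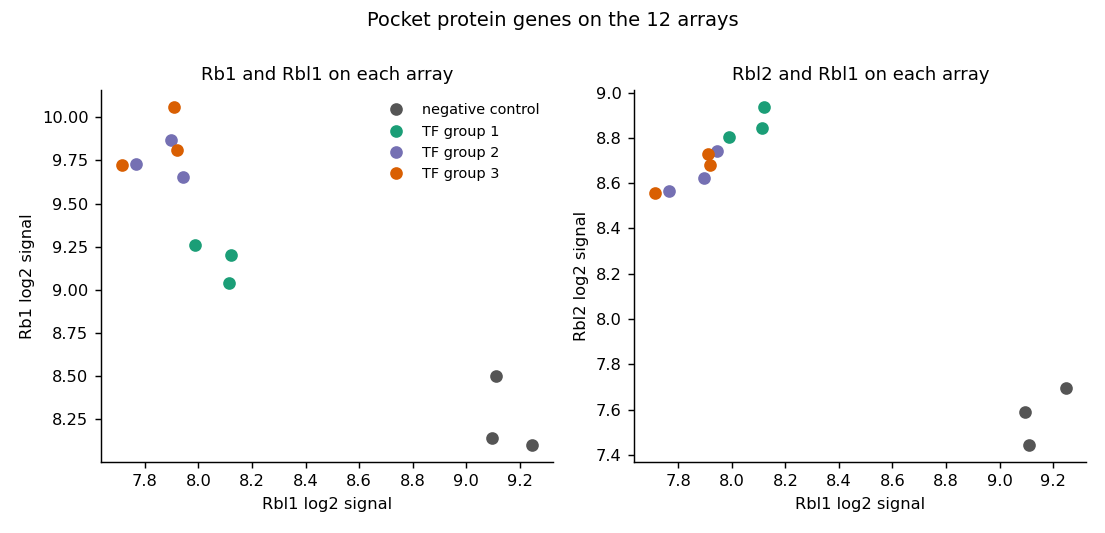
Log2 signal of Rb1 (left) and Rbl2 (right) against that of Rbl1 on each of the 12 arrays, by group, at the brighter probe set where there were several. The 3 control arrays lie at the lower right and all 9 TF arrays at the upper left, and TF group 1 lies below TF groups 2 and 3 on the Rb1 axis.

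The promoter windows of these genes are shown because the genes that fell are textbook E2F targets. RefSeq windows of GRCm38.p6, 250 bases before to 50 after a transcript start, were used for 5 of the 9 genes (Ccnd3, Ccne1, Rbl1, Rbl2 and E2f1, but not Ccnd1, Ccnd2, Ccne2 or Rb1), and the start site of the E2f1 window lay 466 bases inside the gene rather than at its outer end. Ccnd3 had a further window, with a start site 88416 bases inside its gene. They were searched on both strands for the E2F motif in the forms TTTCCCGC, TTTCGCGC, TTTGCCGC and TTTGGCGC, and for the cell cycle homology region TTTGAA, a site of the MuvB complex. The 250 bases before the start of a gene that fell with a match (Rbl1), a gene that fell without one (Ccne1) and a gene that rose (Rbl2) read as follows, each in the direction of transcription, with matches in capitals.
Rbl1, minus strand, chr2:157204535-157204784: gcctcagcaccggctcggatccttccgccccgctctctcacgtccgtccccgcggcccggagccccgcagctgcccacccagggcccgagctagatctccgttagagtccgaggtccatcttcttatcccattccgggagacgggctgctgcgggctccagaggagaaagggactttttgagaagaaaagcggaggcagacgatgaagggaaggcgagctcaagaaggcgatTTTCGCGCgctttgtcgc
Ccne1, minus strand, chr7:38107491-38107740: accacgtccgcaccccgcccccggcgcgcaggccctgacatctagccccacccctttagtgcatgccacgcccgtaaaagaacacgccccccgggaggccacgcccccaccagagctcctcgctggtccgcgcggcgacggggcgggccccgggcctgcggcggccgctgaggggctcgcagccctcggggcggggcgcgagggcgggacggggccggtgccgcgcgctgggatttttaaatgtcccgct
Rbl2, plus strand, chr8:91069807-91070056: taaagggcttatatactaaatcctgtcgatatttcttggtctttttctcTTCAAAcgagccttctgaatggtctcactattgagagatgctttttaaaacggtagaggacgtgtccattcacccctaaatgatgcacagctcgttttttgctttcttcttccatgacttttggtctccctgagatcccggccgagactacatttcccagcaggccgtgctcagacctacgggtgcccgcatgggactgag

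The single E2F match among the 5 genes was TTTCGCGC in Rbl1, on the strand of the gene, with its last base 11 bases before the start. The single TTTGAA match was in Rbl2, on the opposite strand, with its nearest base 196 bases before the start, and no match overlapped another. Of the 27025 genes with a window, 2.60% held the E2F letters and 20.2% the letters TTTGAA. The absence of a match in Ccne1, Ccnd3 and E2f1 says only that these letters are not in these windows. Of the E2F target genes of DNA synthesis described below, 11 of the 19 with a window held the E2F letters. That list was drawn up as E2F targets, so this share describes the list and tests nothing in these data. The median GC content was 59.3% in that list and 52.8% over all genes with a window.

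E2f1 (chr2:154559400-154569892, GRCm38.p6) itself gave unlike results at its probe sets. At the brighter, the signals were 317, 326 and 302 in the negative control, 225, 220 and 210 in TF group 1, 192, 199 and 215 in TF group 2, with 202, 223 and 204 in TF group 3. All control arrays were above all TF arrays, and the TF groups overlapped with each other. The folds were 1.44, 1.56 and 1.503 lower (log2 differences -0.53, -0.64 and -0.59, SE 0.07, adjusted p from 4.6e-05 to 0.00018), so that TF group 1 stayed under the fold threshold and TF group 3 passed it by little. At the dimmer probe set the signals were 163, 176 and 176 in the negative control, 210, 184 and 181 in TF group 1, 205, 146 and 169 in TF group 2, with 211, 197 and 150 in TF group 3. Its log2 differences of 0.16, 0.00 and 0.10 (SE 0.15) had adjusted p-values of 0.46, 0.996 and 0.65. With the mean of both probe sets E2f1 was not called in any TF group. Scaled to the spikes, both probe sets were called lower in each TF group, the brighter at -1.43, -1.38 and -1.38 and the dimmer at -0.74, -0.74 and -0.69.

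The genes whose 12 log2 signals followed each member most closely, by the root mean square (RMS) difference after centring each gene on its own mean, were looked up among 7119 genes with a mean log2 signal of at least 7. For Ccne2 these were Aurka, a mitotic kinase (RMS difference 0.14), Pimreg (0.23) and Trip13 (0.23), where the median over all candidates was 1.33. For Rbl1 they were Cks1b, a subunit of CDK complexes (0.07), Nsmce4a (0.09) and Dtymk, which makes dTTP precursor (0.09), with a median of 0.59. For Ccne1 they were Sf3a3 (0.10), Slc9a3r2 (0.11) and Tfdp1, the E2F dimerization partner (0.12), with a median of 0.55.

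For Rbl2 the nearest were Cog6 (0.07), Cdkn1a, the gene of the CDK inhibitor p21 (0.08), and Hsd17b11 (0.08), with a median of 0.52, and for Rb1 they were Atp7a (0.12), Gpc3 (0.14) and Phf8 (0.16), with a median of 0.66. The D-type cyclin genes lay near Rcn3, Selenom and Cyb5r3 for Ccnd1 (each 0.06, median 0.30), Laptm4a, Bsg and Ccdc80 for Ccnd2 (each 0.06 or less), and Sec31a, Cd164 and Lin7c for Ccnd3 (0.06). For E2f1 they were Snrpe, Gtpbp4 and Hnrnpa2b1 (0.05 to 0.06, median 0.35). These likenesses describe 12 arrays in 4 groups, of which the negative control sets most of the pattern.

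The genes around the G1 switch were counted in 8 lists. Of all genes, 8.93%, 10.1% and 9.84% were called lower in TF groups 1, 2 and 3. The E2F target genes of DNA synthesis fell nearly throughout: 20, 19 and 20 of 21 measured genes were called lower in TF groups 1, 2 and 3 and none higher, and their median log2 differences were -1.83, -2.04 and -1.87, where the median of all genes was 0.07, 0.06 and 0.05. Tk1, thymidine kinase, fell 10.5-, 11.9- and 13.4-fold, Uhrf1, which guides DNA methylation to new strands, 6.50-, 10.8- and 8.84-fold, and Cdc6, a licensing factor of replication origins, 7.50-, 10.3- and 7.86-fold. In the list of other E2F and DP genes 3 of 6 were called lower in each TF group (medians -0.50, -0.58 and -0.38), namely E2f8, Tfdp1 and E2f6, with log2 differences of -2.10, -0.85 and -0.59 in TF group 1. In the MuvB and DREAM list it was also 3 of 6 (medians -1.22, -0.97 and -1.14), which were Mybl2, Lin9 and Foxm1 (-2.67, -1.88 and -1.59 in TF group 1).

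Of the kinases that the cyclins bind and their regulators, 5, 5 and 6 of 12 were called lower and 0, 1 and 0 higher (medians -0.50, -0.51 and -0.57). Of all genes 8.93%, 10.1% and 9.84% were lower. With spike scaling 12, 11 and 11 of the 12 were called lower, against 55.3%, 44.4% and 48.4% of all genes. The largest falls were of Cdk1, the mitotic kinase (-2.40, -2.72 and -2.54), and of the activating phosphatases Cdc25c (-1.60, -1.70 and -1.59) and Cdc25b (-1.21, -1.71 and -1.29). Cdk4, a partner of the D-type cyclins, had log2 differences of -0.56 and -0.53 and was called lower in TF group 3 (-0.74), and Cdk6 had 0.14 and 0.38 in TF groups 1 and 3 and was called higher in TF group 2 (0.77, and 0.03 after spike scaling), both named after their values were seen. CDK inhibitor genes split, with 3 of 7 called higher in each TF group (1 after spike scaling) and 1, 3 and 2 lower. Of all genes, 15.1%, 15.3% and 14.7% were called higher. Cdkn2a, which encodes p16 and ARF, was 7.61-, 9.40- and 8.17-fold higher and remained higher with spike scaling (2.03, 2.50 and 2.24 on the log2 scale), whereas Cdkn1c, the gene of p57, fell by 0.63, 1.90 and 1.14 on the log2 scale.

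Of 9 genes of cyclin turnover 4 were called lower in each TF group, with 1 higher in TF group 3 (medians -0.39, -0.41 and -0.51). The share of all genes called lower was 8.93%, 10.1% and 9.84%. Skp2, which marks p27 for destruction, fell 3.38-, 3.30- and 2.80-fold, and the CDK subunits Cks2 and Cks1b fell 3.09- and 2.16-fold in TF group 1. Of 14 other cyclins 2, 2 and 3 were called higher and 3 lower in each TF group (medians 0.08, -0.09 and 0.09). Of all genes 15.1%, 15.3% and 14.7% were higher. After spike scaling none of these cyclins was higher and 9, 7 and 8 were lower. That was near the share of all genes, of which 55.3%, 44.4% and 48.4% were lower under that scaling. Those lower on the deposited scale were the S phase and mitotic cyclins Ccna2, Ccnb2 and Ccnf (-2.87, -2.54 and -1.77 in TF group 1). Ccna2 was also counted in the list of E2F target genes of DNA synthesis. Ccng2, an atypical cyclin of arrested cells, was higher on the deposited scale (0.83, 0.90 and 0.69) and at -0.07, 0.17 and -0.10 after spike scaling.

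Of 15 mitogen and growth signals upstream of the D-type cyclins, 2, 2 and 3 were called higher and 5, 5 and 4 lower, with medians of 0.14, -0.04 and 0.20. Of all genes 15.1%, 15.3% and 14.7% were called higher, so the number higher was near that share. The share of all genes called lower was 8.93%, 10.1% and 9.84%. Scaled to the spikes, 0, 1 and 0 of the 15 genes were called higher and 11, 9 and 8 lower. The AP-1 member Fosl1 fell by 1.82, 1.69 and 1.78 on the log2 scale, Ets1 by 1.13, 0.89 and 0.98 and Notch1 by 0.78, 1.00 and 0.79. With spike scaling the medians of all 8 lists were below 0 in each TF group, as was that of all genes, and the E2F targets remained the lowest at -2.73, -2.77 and -2.66. That scaling called lower 21, 20 and 20 of the 21 E2F targets, all 6 other E2F and DP genes and 5 of 6 MuvB and DREAM genes in each TF group, 8, 7 and 7 of 9 genes of cyclin turnover and 4 of 7 CDK inhibitors in each, where 55.3%, 44.4% and 48.4% of all genes were lower.

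**Figure D5:**
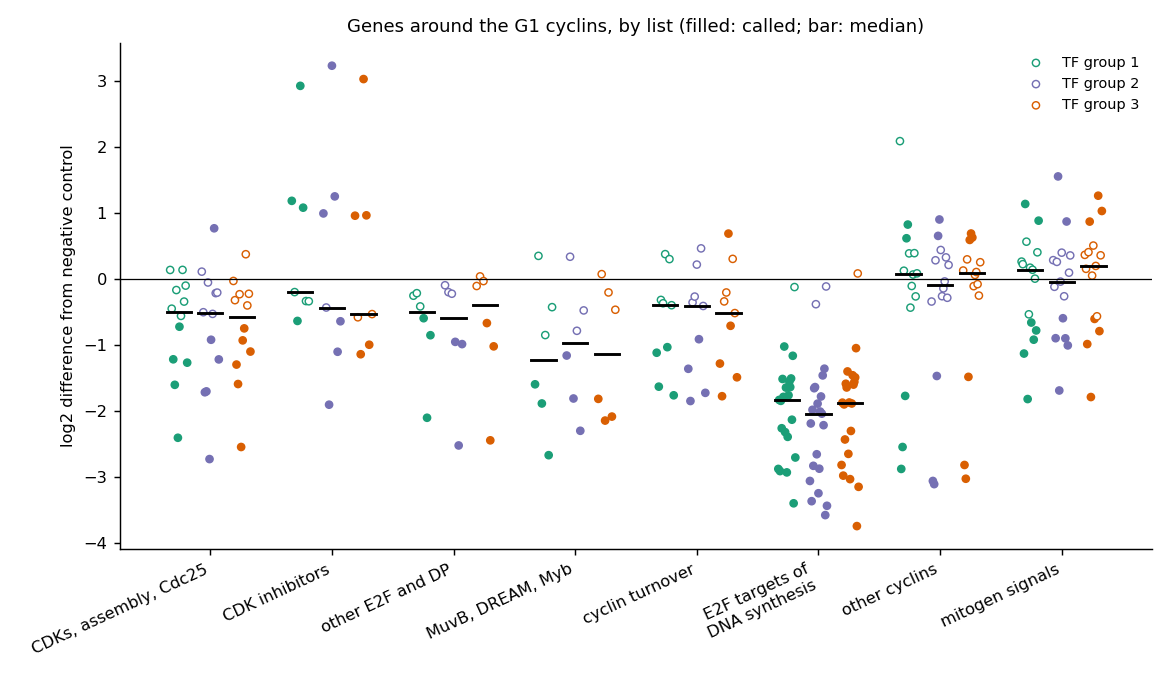
Log2 difference from the negative control of each gene of the 8 lists, on the deposited scale, by TF group. Points are genes, filled where called, and bars are list medians. The E2F targets of DNA synthesis lie lowest, with medians of -1.83, -2.04 and -1.87, and Cdkn2a stands highest among the CDK inhibitors.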

How the data were processed

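RNA of whole MEF cultures was measured on 12 arrays, 3 in each of 4 groups named by the labels. The deposited intensity values are 1 linear signal per probe set and array, scaled by the authors or their core facility to a common trimmed mean (without the lowest and highest 2% of probe sets). The labels name RMA and Partek without versions. RMA gives log2 values, so the step that made this linear signal is not given in the sources used here.

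These signals were log2 transformed as they stood. Of 22690 probe sets, 64 controls were left out, and 20380 of the remaining 22626 carried 1 gene symbol, 691 several and 1555 none. In R 4.3.3, limma 3.58.1 was fitted over all 12 arrays (a mean for each group, moderated variances), with Benjamini-Hochberg adjusted p-values over the 22626 probe sets. A probe set was called at an adjusted p under 0.05 and a fold over 1.5, the fold of the study's methods. Probe sets whose names end in _a_at, _s_at or _x_at can bind several transcripts. Values within arrays are differences between the log2 signals of 2 genes, with the SD over arrays. The fit was tested on simulated data.

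The 9 genes and the 8 lists around them were chosen with earlier results of these data known, so counts and medians describe them and no list was tested. All members were named. From each list the rule named the gene with the largest rise and the 3 with the largest fall among those called in all 3 comparisons with the negative control. Likeness was the RMS difference over 12 arrays, for the 3 nearest genes. Promoter windows and gene positions are those of RefSeq (GRCm38.p6). The main fit did not pair the samples by replicate number.

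Alternatives were an intensity trend, array weights, an unmoderated linear model, only the 2 groups compared, a replicate block, other scalings (median, quantile, poly-A spikes), an offset of 50, a filter on dim probe sets, other thresholds, the mean of the probe sets of a gene, and each array left out in turn.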

Additional observations from a re-analysis of the deposited data

Results flagged for a closer look

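Rb1 differed between TF groups under the same contrast with the negative control. Its log2 difference was 0.70 larger in TF group 3 than in TF group 1 (SE 0.13, adjusted p = 0.0069 in limma), with all 3 arrays of TF group 3 above all 3 of TF group 1. The difference was tested directly, as a contrast of both groups, and it was the only one of the 9 genes at its brightest probe set to be called there. It was called without each array in turn as well.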

How the results depend on the processing

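At its brightest probe set, each of Ccne1, Ccne2 and Rbl1 was called lower in all 3 TF groups under every alternative except the fold threshold of 2 (Ccne1 in TF group 1). Scaling to the poly-A spikes turned 8 signs among the values called under it or the deposited scaling, namely those of Ccnd2 in TF group 1 at 1448229_s_at (-0.21) and 1416124_at (-0.12) and in TF group 3 at 1416123_at (-0.10) and 1416124_at (-0.18), of Ccnd1 in TF group 3 at its brightest probe set (-0.63) and at 1448698_at (-0.68), and of E2f1 at its dimmer probe set in TF groups 1 and 3 (-0.74 and -0.69). Among values called under neither, those of Ccnd1, Ccnd2 and Ccnd3 at their brightest probe sets turned as well. The same scaling ended the calls of Rbl2 in all 3 TF groups and of Rb1 in TF group 1.

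The number of the 9 genes called differed from that in the report by over 1.5 times in these cases. Between TF groups 3 and 2, 1 gene (Ccne2, higher) was called with an intensity trend or the unadjusted p, and between TF groups 2 and 1, 1 gene (Rb1, higher) with median centring or quantile normalization. Without a fold threshold, 9 genes were called in TF group 1, and 1, 1 and 2 between TF groups 2 and 1, 3 and 2, and 3 and 1. With a fold over 2, 3 genes were called in TF group 1 and 0 between TF groups 3 and 1. With each array left out in turn, the counts ranged from 0 to 1 between TF groups 3 and 2, where 1 gene (Ccne2) was called without replicate 1 of TF group 2, and from 5 to 6 for TF group 3. E2f1 in TF group 3 was lost without replicate 1 or 2 of the negative control or replicate 1 or 3 of TF group 3, and its log2 difference lay between -0.63 and -0.56. E2f1 also lost its call in TF group 3 with array weights (-0.58) and in TF groups 2 and 3 with an offset of 50 (-0.53 and -0.49), and with the mean of its probe sets (-0.32 and -0.24). Median centring moved the log2 differences of Ccnd1 to 0.40, 0.32 and 0.05 in TF groups 1, 2 and 3.

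A replicate block changed no call at any of the 20 probe sets, with 5, 6 and 6 genes called against the negative control. Same-numbered samples correlated at -0.02 to 0.05 in their deviations from the group means, and differently numbered ones at -0.04 to 0.03. Of 12 arrays, 6 correlated best with their own number. These ranges overlap and are near 0, so they cannot decide whether the numbers pair the samples. Dim probe sets limit what can be seen of Rbl1 at its dimmer probe set, where the signal was 15.2 to 74.4.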
